A study of Mus musculus with 24 samples.

Results

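The gluconeogenesis, urea cycle and amino acid catabolism module comprised 39 genes for enzymes of hepatic nitrogen and glucose metabolism. They were chosen by name from the array's annotation, with earlier results of these data known, and sorted into 8 pathways by function. All 39 were among the 22088 genes tested, of 37325 genes named on the array. Expression was measured in the livers of 24 female mice of the mixed sv129/C57 background, 8 weeks old, with 1 single-colour Agilent array per mouse. Wild-type (WT) mice and mice lacking both liver X receptors (LXRα and LXRβ, encoded by Nr1h3 and Nr1h2) received either water or fumonisin B1 (FB1), a Fusarium mycotoxin, at 10 mg per kg body weight per day for 1 month. This gave 4 groups of 6 mice, called WT control and KO control on water and WT FB1 and KO FB1 on the toxin, where KO stands for the double knockout. The livers were analysed whole, and neither the deleted part of each receptor gene nor the feeding state at collection is given in the sources used here.

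The liver disposes of amino acids that exceed the need for protein synthesis. Aminotransferases and other catabolic enzymes release their nitrogen, which the urea cycle turns into urea, and their carbon skeletons, many of which feed gluconeogenesis. These enzymes are abundant in hepatocytes and respond to fasting, glucagon, glucocorticoids and dietary protein, and several are zoned along the liver lobule, with urea cycle enzymes around the portal vein and ornithine aminotransferase and glutamine synthetase beside the central vein. FB1 inhibits ceramide synthase and is toxic to the liver, and LXRs are oxysterol receptors that govern cholesterol and fatty acid metabolism.

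Every array value below is the log2 of the background-subtracted signal relative to that array's 75th percentile, so that 1 unit is a doubling, and values are compared for the same gene only. All 39 genes were well above background on all 24 arrays, between 58.7% and 64.5% of spots were above background per array, and arrays of a group correlated at 0.984 to 0.994. The deleted genes were low in every KO library. Nr1h3 ranged from 4.71 to 5.06 in the 12 WT livers and from -5.13 to -2.56 in the 12 KO livers, and Nr1h2 from 4.02 to 4.34 and from 0.31 to 0.80. The 14 hepatocyte markers tested were above background on all arrays and their mean differed from the WT control mean by -0.28 to 0.18 on any array. In whole liver, fewer cells of a type and less RNA per cell cannot be told apart.

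One library stood apart for these genes. KO FB1 replicate 3 had the highest signal of the 6 KO FB1 livers for 38 of the 39 genes, the exception being Kynu, and the mean of the module relative to WT control was -0.21 there against -1.03 to -0.58 in the other 5. The arrays lay on 3 slides with 2 mice of each group on each, and KO FB1 replicates 3 and 4 shared slide 2. Results that rest on the KO FB1 group are therefore also given without replicate 3, and by slide. Because replicate 3 was picked from these same genes, leaving it out lowers the KO FB1 mean for 38 of the 39. Results without it show its weight and are no independent check of the calls.

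FB1 lowered nearly the whole module in KO livers, and no gene of it passed the test in WT livers. In KO livers 37 of 39 genes fell with FB1 and 0 rose, where 24.6% of all genes tested fell and 16.5% rose. Calls were made with limma at an adjusted p under 0.05 over all genes. The median difference over the 39 genes was -0.76, against -0.08 over all genes, and the 37 genes that fell did so by 1.29-fold to 6.61-fold with a median of 1.71-fold. For 29 genes the fall was at least 1.5-fold, which held for 7.41% of all genes, and for 20 genes every KO FB1 liver lay below every KO control liver, which held for 9.48%. Ornithine aminotransferase (Oat), aspartate aminotransferase (Got1), kynurenine formamidase (Afmid) and S-adenosylhomocysteine hydrolase (Ahcy) had the largest falls, while Bhmt and Sdsl did not pass the test.

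In WT livers 0 of 39 genes were called, where 0.824% of all genes fell and 2.06% rose, and 17 of the 39 had an unadjusted p under 0.05. Their differences lay below 0 for 38 genes, against 57.3% of all genes, with a median of -0.24 against -0.03. The lowest adjusted p was 0.0527, for Gnmt. For Tat, Hgd and Cth every WT FB1 liver lay below every WT control liver, which was the case for 1.03% of all genes. Both comparisons set 6 mice against 6 and used a spread estimated over all 24 arrays.

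**Figure D1:**
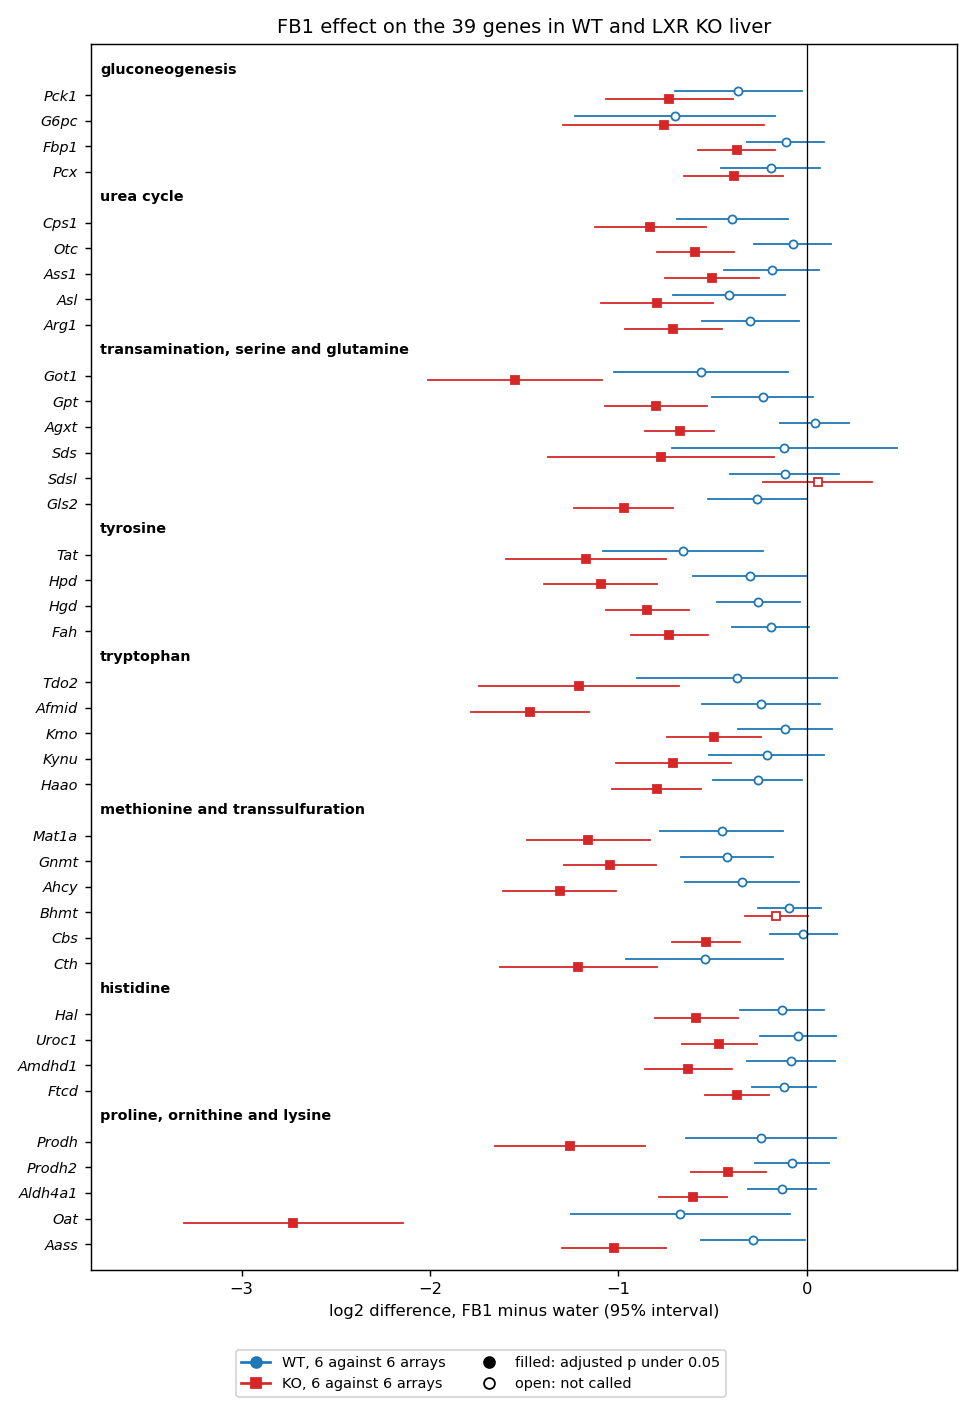
Difference between FB1 and water for each of the 39 genes (log2, horizontal axis), grouped by pathway, in WT (blue circles) and KO livers (red squares); lines are 95% intervals and filled symbols have an adjusted p under 0.05. The 37 filled symbols all belong to KO livers, and Oat lies farthest to the left at -2.73.

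Leaving out KO FB1 replicate 3 gave 38 genes that fell in KO livers, with a median of -0.85 where 27.3% of all genes fell. The added gene was Bhmt, with an adjusted p of 0.0315 in limma. Within slides 1, 2 and 3 the median difference in KO livers was -0.89, -0.43 and -0.94, and 39, 37 and 38 genes lay below 0. In WT livers it was -0.22, -0.46 and -0.01 on those slides, with 38, 35 and 23 genes below 0. Each slide holds 2 mice per group, so these are values without a test.

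**Figure D2:**
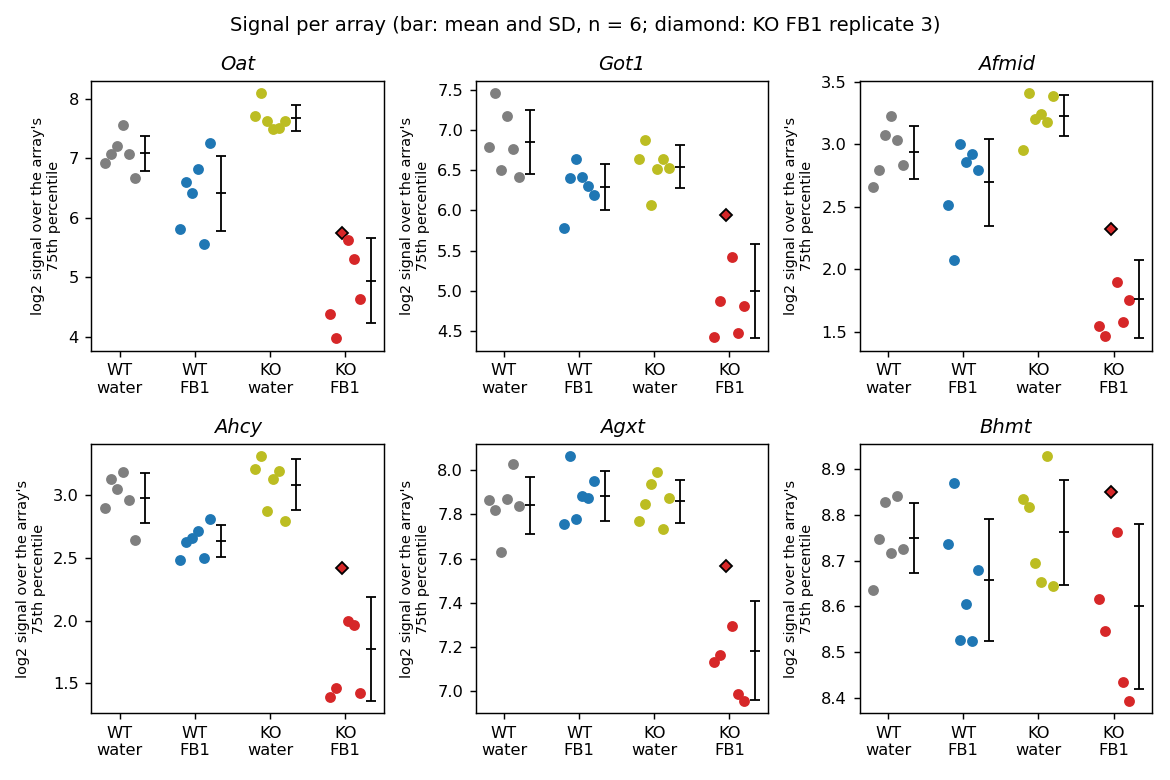
Signal of 6 genes on each of the 24 arrays (log2 relative to the array's 75th percentile, vertical axis) by group; the bar beside each group is the mean and SD of 6 mice, and the diamond is KO FB1 replicate 3. For Oat, Got1, Afmid, Ahcy and Agxt all 6 KO FB1 livers lie below all 6 KO control livers, and for Bhmt the groups overlap.

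Sequences upstream of 4 of these genes are shown to set 3 genes with large falls in KO livers, Oat, Got1 and Ahcy, beside Bhmt, which did not pass the test. Each is the 250 bases before the annotated start in RefSeq (GRCm38.p6), written 5′ to 3′ along the gene. All 4 genes lie on the minus strand, at chr7:132576399-132576648 for Oat, chr19:43524606-43524855 for Got1, chr2:155074498-155074747 for Ahcy and chr13:93637759-93638008 for Bhmt. Capitals mark AGGTCA, the core element of many nuclear receptor sites, and CCAAT, the CCAAT box, each on either strand, so that TGACCT and ATTGG are the reverse readings.
Oat: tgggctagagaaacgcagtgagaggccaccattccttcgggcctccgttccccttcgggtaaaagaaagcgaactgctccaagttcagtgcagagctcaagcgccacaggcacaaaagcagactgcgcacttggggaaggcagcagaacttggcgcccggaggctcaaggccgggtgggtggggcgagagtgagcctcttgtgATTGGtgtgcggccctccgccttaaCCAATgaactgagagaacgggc
Got1: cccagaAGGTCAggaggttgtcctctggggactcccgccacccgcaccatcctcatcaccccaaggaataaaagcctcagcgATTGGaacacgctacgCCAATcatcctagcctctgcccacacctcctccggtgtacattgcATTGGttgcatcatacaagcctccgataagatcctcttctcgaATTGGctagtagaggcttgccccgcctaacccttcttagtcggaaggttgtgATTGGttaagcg
Ahcy: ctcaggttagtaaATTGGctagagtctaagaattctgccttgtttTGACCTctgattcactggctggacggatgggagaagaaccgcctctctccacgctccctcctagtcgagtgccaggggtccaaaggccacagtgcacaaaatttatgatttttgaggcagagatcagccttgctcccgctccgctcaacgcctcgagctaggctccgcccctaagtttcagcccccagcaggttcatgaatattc
Bhmt: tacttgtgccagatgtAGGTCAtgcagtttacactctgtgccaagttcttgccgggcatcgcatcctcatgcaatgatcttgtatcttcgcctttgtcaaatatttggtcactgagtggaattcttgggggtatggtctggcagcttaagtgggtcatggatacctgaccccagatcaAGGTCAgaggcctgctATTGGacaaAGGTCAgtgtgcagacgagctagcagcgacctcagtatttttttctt
An upstream sequence was found for 29 of the 39 genes, and 10 motifs were searched on both strands, of which these 2 were chosen for capitals after the search. AGGTCA was present in 11 of 29 (37.9%), against 14% of all 32851 RefSeq promoters, and CCAAT in 17 of 29 (58.6%), against 33.8%. TATAAA was present in 5 (17.2%, against 12.4%), GTTAAT, a sequence bound by HNF1, in 5 (17.2%, against 6.43%), the E-box CACGTG in 3 (10.3%, against 6.02%) and AGAACA, a glucocorticoid receptor element, in 2 (6.9%, against 16.1%). The cAMP response element TGACGTCA, the forkhead sequence GTAAACA, the HNF4A sequence CAAAGTCCA and the C/EBP sequence TTGCGCAA were in 0 of 29, against 1.55%, 3.17%, 0.384% and 0.164%. Oat held CCAAT on both strands and no AGGTCA in this window, whereas Bhmt held AGGTCA at 3 places. In these 4 sequences no marked AGGTCA shares a base with a marked CCAAT, and a match describes letters only.

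In gluconeogenesis, all 4 genes fell in KO livers, with a median of -0.56. G6pc encodes the catalytic subunit of glucose-6-phosphatase, which releases free glucose. It had the largest difference of the pathway in both genotypes. G6pc ranged from 6.14 through a median of 6.99 to 7.78 in KO control and from 5.73 through 6.27 to 6.60 in KO FB1 livers, and from 6.49 through 7.19 to 7.57 in WT control and from 5.81 through 6.53 to 6.97 in WT FB1 livers. The groups overlapped in both genotypes. The fall in KO livers was -0.76 ± 0.26 (SE, n = 6 per group, limma adjusted p = 0.0215), and the WT difference of nearly the same size, -0.70 ± 0.26, had an adjusted p of 0.148 in limma. The KO call for G6pc was lost in 3 of 24 fits that each left out 1 array. Pck1, the cytosolic phosphoenolpyruvate carboxykinase that commits oxaloacetate to glucose, fell by 0.73 ± 0.16 in KO livers, Pcx, the mitochondrial pyruvate carboxylase, by 0.39 ± 0.13, and Fbp1, fructose-1,6-bisphosphatase, by 0.37 ± 0.10. No gluconeogenic gene was called for a difference between the genotypes in the FB1 effect.

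All 5 urea cycle genes fell in KO livers, with a median of -0.71 and adjusted p from 6.06e-05 to 0.00215 in limma. Cps1, the mitochondrial carbamoyl phosphate synthetase that takes ammonia into the cycle, fell most. Its values were 5.90, 6.14 and 6.45 (lowest, median, highest) in KO control and 4.99, 5.26 and 5.92 in KO FB1 livers, against 6.07, 6.32 and 6.63 in WT control and 5.66, 5.88 and 6.16 in WT FB1 livers. Only KO FB1 replicate 3 reached into the KO control range. The fall in KO livers was -0.83 ± 0.14 and the WT difference was -0.39 ± 0.14 (limma adjusted p = 9.0e-05 and 0.141).

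Asl, argininosuccinate lyase, showed the largest WT difference of the cycle, -0.41 ± 0.14 (limma adjusted p = 0.125). Asl ranged from 5.59 through 5.91 to 6.50 in WT control, 5.30 through 5.48 to 5.93 in WT FB1, 5.90 through 6.04 to 6.23 in KO control and 5.01 through 5.17 to 5.75 in KO FB1 livers. The KO groups did not overlap and the WT groups did. Otc, ornithine transcarbamylase, was the only gene of the cycle whose fall was called as larger in KO than in WT livers. The KO effect minus the WT effect was -0.52 for Otc, -0.44 for Cps1, -0.41 for Arg1, -0.38 for Asl and -0.32 for Ass1. Otc ranged from 5.67 through 5.79 to 6.15 in WT control, 5.67 through 5.77 to 5.98 in WT FB1, 5.55 through 5.65 to 5.79 in KO control and 4.77 through 5.04 to 5.46 in KO FB1 livers, so that every KO FB1 liver lay below all the others. Otc fell by 0.59 ± 0.098 in KO livers, and the WT difference was -0.07 ± 0.098. Arginase (Arg1), which splits off urea, fell by 0.71 ± 0.12 in KO livers, and argininosuccinate synthase (Ass1) by 0.50 ± 0.12.

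Of the 6 genes of transamination and of serine, alanine, glyoxylate and glutamine use, 5 fell in KO livers, with Sdsl as the exception. Got1, the cytosolic aspartate aminotransferase, had the largest difference of the group in both genotypes. It ranged from 6.42 through 6.78 to 7.46 in WT control, 5.79 through 6.35 to 6.64 in WT FB1, 6.07 through 6.58 to 6.87 in KO control and 4.43 through 4.85 to 5.95 in KO FB1 livers. All 6 KO FB1 livers lay below the KO controls, with replicate 3 nearest to them. The fall was -1.55 ± 0.22, or 2.92-fold (limma adjusted p = 1.2e-05), and the WT difference was -0.56 ± 0.22 (adjusted p = 0.181).

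Agxt, the peroxisomal alanine-glyoxylate aminotransferase, fell in KO livers and had a WT difference close to 0. Agxt ranged from 7.63 through 7.85 to 8.03 in WT control, 7.76 through 7.88 to 8.06 in WT FB1, 7.73 through 7.86 to 7.99 in KO control and 6.96 through 7.15 to 7.57 in KO FB1 livers. Every KO FB1 liver lay below every liver of the other 3 groups. The fall was -0.67 ± 0.089 (limma adjusted p = 4.43e-06) and the WT difference 0.04 with a 95% interval from -0.14 to 0.23. Gls2, the liver glutaminase that releases ammonia from glutamine, ranged from 5.93 through 6.23 to 6.59 in WT control, 5.89 through 5.94 to 6.14 in WT FB1, 6.32 through 6.37 to 6.55 in KO control and 5.15 through 5.28 to 6.07 in KO FB1 livers. The KO groups did not overlap, and Gls2 fell by 0.97 ± 0.13 there. The alanine aminotransferase Gpt fell by 0.80 ± 0.13. The serine dehydratase Sds fell by 0.77 ± 0.29 with an adjusted p of 0.0356 in limma, a call lost in 6 of 24 fits without 1 array. Its other tested probe was not called, at -0.69 ± 0.52 (limma adjusted p = 0.312 over all probes). The related Sdsl differed by 0.06 with a 95% interval from -0.23 to 0.35.

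All 4 genes of tyrosine breakdown fell in KO livers, with a median of -0.97, and 3 of them fell further in KO than in WT livers. Tat, tyrosine aminotransferase, catalyses the first step and had the largest difference in both genotypes. It ranged from 7.29 through 7.40 to 7.70 in WT control, 6.38 through 6.77 to 7.16 in WT FB1, 6.87 through 7.28 to 7.58 in KO control and 5.34 through 6.09 to 7.03 in KO FB1 livers. The WT groups did not overlap, and in KO livers replicate 3 lay within the control range. The difference was -0.66 ± 0.20 in WT (limma adjusted p = 0.0851) and -1.17 ± 0.20 in KO livers (adjusted p = 0.000107).

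The next enzymes of the tyrosine pathway, 4-hydroxyphenylpyruvate dioxygenase (Hpd), homogentisate dioxygenase (Hgd) and the final fumarylacetoacetase (Fah), showed non-overlapping KO groups. Hpd ranged from 7.14 through 7.46 to 7.78 in WT control, 6.91 through 7.13 to 7.38 in WT FB1, 7.36 through 7.49 to 7.77 in KO control and 6.06 through 6.32 to 7.14 in KO FB1 livers. Hgd ranged from 4.67 through 4.76 to 4.97, 4.41 through 4.53 to 4.63, 4.74 through 4.86 to 5.09 and 3.59 through 3.98 to 4.53 in the same order of groups. Fah ranged from 5.63 through 5.81 to 6.05, 5.39 through 5.63 to 5.74, 5.67 through 5.97 to 6.01 and 4.90 through 5.15 to 5.41. In each of the 3 genes the KO FB1 median was the lowest of the 4 medians. The falls in KO livers were -1.09 ± 0.15, -0.85 ± 0.11 and -0.73 ± 0.099 (limma adjusted p = 4.64e-06, 2.59e-06 and 6.12e-06), and the WT differences -0.30, -0.26 and -0.19.

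All 5 genes of the tryptophan-kynurenine pathway fell in KO livers. Afmid, which hydrolyses N-formylkynurenine, had the smallest adjusted p of the module, 2.41e-07 in limma. It ranged from 2.66 through 2.94 to 3.23 in WT control, 2.08 through 2.83 to 3.01 in WT FB1, 2.96 through 3.22 to 3.41 in KO control and 1.47 through 1.67 to 2.32 in KO FB1 livers. The KO groups stood well apart and the fall was -1.47 ± 0.15, or 2.77-fold. Tdo2, the tryptophan dioxygenase that starts the pathway, ranged from 6.12 through 6.88 to 7.59, 5.99 through 6.57 to 6.91, 6.93 through 7.14 to 7.46 and 4.92 through 6.01 to 6.93 in the 4 groups in that order. Its KO FB1 livers were the most spread of the 4 groups, with replicate 3 at the top. Tdo2 fell by 1.21 ± 0.26 in KO livers, and the WT difference of -0.37 ± 0.26 was the largest of the pathway.

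Haao, which opens the ring of 3-hydroxyanthranilate, fell by 0.80 ± 0.11 in KO livers, from 6.62, 6.79 and 7.0 in KO control to 5.77, 5.91 and 6.52 in KO FB1 livers, without overlap. In WT livers Haao was 6.68, 6.93 and 7.27 in control and 6.54, 6.68 and 6.87 with FB1. Kynu, kynureninase, fell by 0.71 ± 0.15 in KO livers, and Kmo, kynurenine monooxygenase, by 0.49 ± 0.12. Kynu was the gene for which KO FB1 replicate 4, not replicate 3, had the highest value.

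In methionine and transsulfuration metabolism 5 of 6 genes fell in KO livers, with a median of -1.1, and 4 of the 5 did not overlap between the KO groups. Ahcy, which hydrolyses S-adenosylhomocysteine, fell most. It ranged from 2.64 through 3.01 to 3.19 in WT control, 2.48 through 2.64 to 2.81 in WT FB1, 2.79 through 3.16 to 3.31 in KO control and 1.39 through 1.71 to 2.42 in KO FB1 livers. All KO FB1 livers lay below all other livers, and the fall was -1.31 ± 0.15, or 2.48-fold (limma adjusted p = 6.22e-07). Cth, the cystathionine lyase that yields cysteine, had the largest WT difference of the pathway. It ranged from 5.75 through 6.01 to 6.47 in WT control, 5.32 through 5.57 to 5.71 in WT FB1, 6.02 through 6.26 to 6.55 in KO control and 4.29 through 4.94 to 6.00 in KO FB1 livers. Neither pair of groups overlapped, although KO FB1 replicate 3 came within 0.02 of the lowest KO control. The differences were -0.54 ± 0.20 in WT (adjusted p = 0.152) and -1.21 ± 0.20 in KO livers (adjusted p = 6.07e-05).

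Mat1a makes S-adenosylmethionine and Gnmt, glycine N-methyltransferase, uses it. Mat1a ranged from 6.85 through 7.01 to 7.21 in WT control, 6.39 through 6.53 to 6.89 in WT FB1, 6.75 through 6.90 to 7.27 in KO control and 5.35 through 5.77 to 6.49 in KO FB1 livers. Gnmt ranged from 7.83 through 8.13 to 8.46, 7.65 through 7.74 to 7.83, 8.22 through 8.48 to 8.70 and 7.13 through 7.43 to 7.88 in that order. KO groups did not overlap for either gene, and the falls were -1.16 ± 0.16 and -1.04 ± 0.12. The Gnmt difference in WT livers was -0.42 ± 0.12 (limma adjusted p = 0.0527), and it passed the threshold with another background correction and with the slide as a block. Cbs, the cystathionine synthase that opens transsulfuration, ranged from 7.66 through 7.68 to 7.82 in WT control, 7.62 through 7.67 to 7.82 in WT FB1, 7.83 through 8.06 to 8.16 in KO control and 7.30 through 7.37 to 7.93 in KO FB1 livers. Cbs fell by 0.53 ± 0.086 in KO livers, and replicate 3 alone overlapped the controls. Bhmt, the betaine-homocysteine methyltransferase, differed by -0.16 ± 0.081 (adjusted p = 0.112) on its brightest probe. A second Bhmt probe was called lower at -0.55 ± 0.20 (adjusted p = 0.0321 over all probes). Another, at -0.55 ± 0.29, was not called (limma adjusted p = 0.139 over all probes).

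All 4 genes of histidine breakdown fell in KO livers by modest amounts, with a median of -0.53. Amdhd1, the imidazolonepropionase of the third step, fell most. It ranged from 4.26 through 4.49 to 4.77 in WT control, 4.33 through 4.38 to 4.6 in WT FB1, 3.93 through 4.11 to 4.42 in KO control and 3.29 through 3.50 to 4.02 in KO FB1 livers, so that KO FB1 was the lowest group and KO control lay below WT control with overlap. The fall was -0.63 ± 0.11 (limma adjusted p = 0.000136). Hal, the histidine ammonia-lyase of the first step, had the largest WT difference of the pathway at -0.13 ± 0.11. Hal ranged from 5.97 through 6.15 to 6.33 in WT control, 5.86 through 6.03 to 6.19 in WT FB1, 6.00 through 6.24 to 6.37 in KO control and 5.34 through 5.58 to 6.13 in KO FB1 livers. It fell by 0.59 ± 0.11 in KO livers, and the groups overlapped through replicate 3. Urocanase (Uroc1) and the bifunctional formiminotransferase (Ftcd) fell by 0.46 ± 0.096 and 0.37 ± 0.082.

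The 5 genes of proline, ornithine and lysine breakdown all fell in KO livers, and Oat showed the largest change of the module. Oat converts ornithine to glutamate semialdehyde. It ranged from 6.67 through 7.07 to 7.56 in WT control, 5.57 through 6.50 to 7.26 in WT FB1, 7.48 through 7.62 to 8.09 in KO control and 3.97 through 4.98 to 5.75 in KO FB1 livers. KO controls were the highest group and KO FB1 livers the lowest, with no overlap between them. The fall was -2.73 ± 0.28, or 6.61-fold (limma adjusted p = 2.54e-07), which ranked 28 of 22088 genes from the lowest difference, and the WT difference was -0.67 ± 0.28 (adjusted p = 0.207). Oat fell by 1.98 on slide 2 and by 2.92 and 3.28 on slides 1 and 3.

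Prodh, the proline dehydrogenase of this pathway, ranged from 5.80 through 5.97 to 6.46 in WT control, 5.55 through 5.77 to 6.24 in WT FB1, 5.87 through 6.01 to 6.24 in KO control and 4.25 through 4.63 to 5.73 in KO FB1 livers. Aldh4a1, which acts next on the product of both Prodh and Oat, ranged from 6.83 through 6.96 to 7.11, 6.73 through 6.84 to 6.91, 7.06 through 7.13 to 7.24 and 6.34 through 6.45 to 7.02. Aass, the bifunctional enzyme that begins lysine breakdown, ranged from 6.51 through 6.63 to 6.97, 6.00 through 6.42 to 6.67, 6.58 through 6.74 to 7.01 and 5.44 through 5.64 to 6.22. The KO groups were separate in all 3 genes. Prodh fell by 1.26 ± 0.19, Aass by 1.02 ± 0.13 and Aldh4a1 by 0.60 ± 0.087 in KO livers (limma adjusted p = 2.42e-05, 3.88e-06 and 1.34e-05), while Prodh2, the hydroxyproline dehydrogenase, fell by 0.42 ± 0.096.

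The next question was whether the FB1 effect itself differed between genotypes, tested as the KO effect minus the WT effect. It was larger in the downward direction in KO livers for 17 of 39 genes and for 0 genes in the opposite direction, where 4.84% and 4.46% of all genes tested differed in those directions. The median over the module was -0.52, against -0.04 over all genes, and 38 genes lay below 0, against 56.3%. At 1.5-fold or more 11 genes were called lower, against 2.61%. By pathway, 4 of 6 methionine, 4 of 5 proline, ornithine and lysine, 3 of 4 tyrosine, 2 of 5 tryptophan, 2 of 6 transamination, 1 of 5 urea cycle, 1 of 4 histidine and 0 of 4 gluconeogenic genes were called. Oat differed by -2.05 ± 0.40 (limma adjusted p = 0.00321), Afmid by -1.23 ± 0.21 (0.00163), Prodh by -1.01 ± 0.27 (0.0217), Ahcy by -0.97 ± 0.21 (0.00577) and Agxt by -0.72 ± 0.13 (0.00174). The other 12 were Hpd, Aass, Gls2, Mat1a, Gnmt, Hgd, Amdhd1, Fah, Haao, Cbs, Otc and Aldh4a1, between -0.79 and -0.47. Leaving out 1 array lost the call for Mat1a in 17 of 24 fits, for Haao in 13 and for Amdhd1 in 10.

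Got1 missed the threshold narrowly at -0.99 ± 0.31 (limma adjusted p = 0.0502). G6pc differed by -0.06 with a 95% interval from -0.81 to 0.69, which includes differences as large as most of those called, so its FB1 effect is not shown to be alike in the genotypes. The same holds for Pck1 (-0.37, from -0.84 to 0.11). The interval for Bhmt on its brightest probe (-0.07, from -0.31 to 0.17) ends short of all 17 differences called. Its other tested probes were less precise, at 0.007 ± 0.28 and -0.40 ± 0.41.

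**Figure D3:**
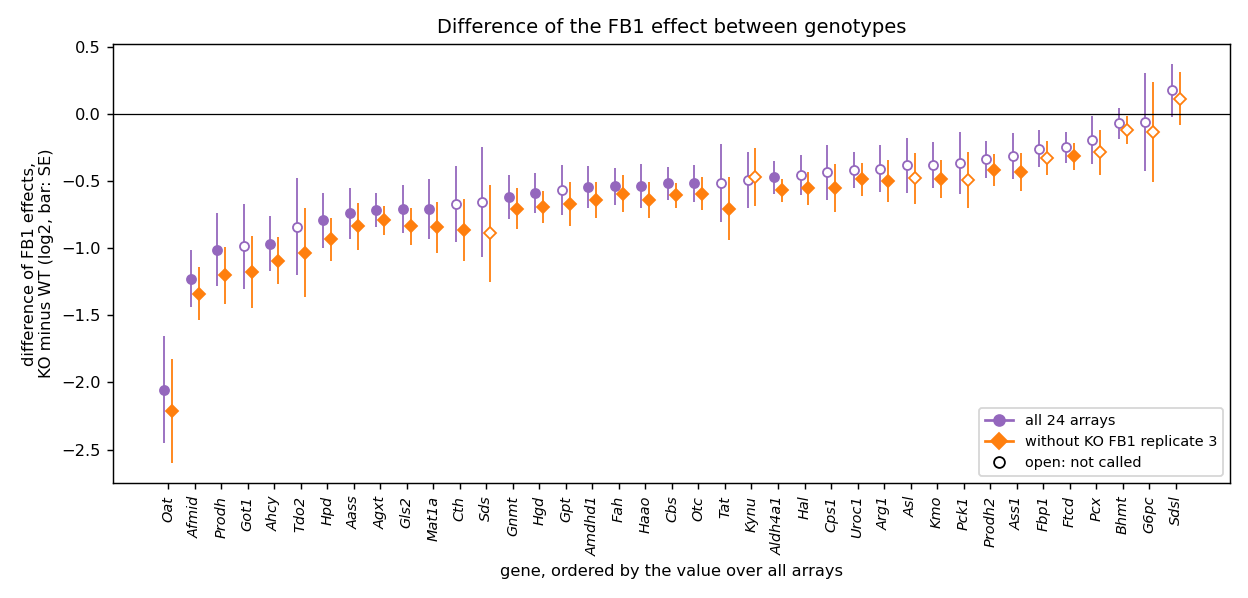
FB1 effect in KO minus FB1 effect in WT for each gene (log2, vertical axis; bars are SE), over all 24 arrays (purple circles) and without KO FB1 replicate 3 (orange diamonds); open symbols were not called. Filled symbols number 17 over all arrays and 30 without that replicate, and Oat is the lowest in both.

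The number of calls was higher without the library that stood apart. It was picked as the highest of its group for 38 of these 39 genes. Leaving it out lowers the KO FB1 means, so that fit is no independent check of the 17 calls. Without KO FB1 replicate 3 the count was 30 of 39, where 7.98% of all genes were called in that direction, with a median of -0.61. All 17 genes remained and 13 were added, namely Arg1, Ass1, Cps1, Cth, Ftcd, Got1, Gpt, Hal, Kmo, Prodh2, Tat, Tdo2 and Uroc1. Leaving out other arrays gave as few as 14. On slides 1, 2 and 3 the median difference between the effects was -0.62, -0.03 and -0.92, and 38, 22 and 38 genes lay below 0. Slide 2 holds that library, and the median FB1 difference in WT livers was also the lowest there, at -0.46 against -0.22 and -0.01. The part of each in the slide 2 value was not tested. With the signal scaled to the 14 hepatocyte markers in place of the 75th percentile, 11 of the 17 were called, namely Aass, Afmid, Agxt, Ahcy, Cbs, Gls2, Hgd, Hpd, Mat1a, Oat and Prodh. The FB1 effect in KO livers was called for 37 genes under that scaling too.

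The genotypes were also compared directly, within each treatment. With water, 2 genes were higher in KO than in WT livers and 1 was lower, where 7.21% and 8.02% of all genes were, and the median over the module was 0.08. Prodh2 was higher by 0.39 ± 0.096 and Cbs by 0.31 ± 0.086 (limma adjusted p = 0.00579 and 0.0155), without overlap between the groups, which held for 3.61% of all genes in this direction. Prodh2 ranged from 5.22 to 5.58 in WT control and from 5.62 to 6.02 in KO control livers. Amdhd1 was lower by 0.34 ± 0.11 (adjusted p = 0.0407), a call lost in 8 of 24 fits without 1 array, and its probes disagreed. The probe used lies at chr10:92986454-92986513 and the other at chr10:93002626-93002685 (mm9, minus strand), and the latter was higher in KO livers by 0.49 ± 0.085 (adjusted p = 0.000212 over all probes). The mean of both differed by 0.07.

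With FB1, 20 genes were lower in KO than in WT livers and 0 higher, where 18.3% and 14.5% of all genes were, and the median was -0.51. At 1.5-fold or more there were 13, against 7.61%. The lower genes were 4 of 4 of tyrosine, 4 of 5 of proline, ornithine and lysine, 3 of 5 of the urea cycle, 3 of 6 of transamination, 2 of 5 of tryptophan, 2 of 6 of methionine, 2 of 4 of histidine and 0 of 4 of gluconeogenesis. Otc, Agxt, Haao, Ahcy and Amdhd1 did not overlap between the genotypes, which held for 8.13% of all genes in this direction. Oat was lower by 1.46 ± 0.28, Got1 by 1.29 ± 0.22 and Prodh by 1.05 ± 0.19 (limma adjusted p = 0.000313, 9.1e-05 and 0.000189). Without KO FB1 replicate 3 the count was 31, where 20.8% of all genes were lower. The median was then -0.61, and all 20 remained. On slides 1, 2 and 3 the median was -0.62, -0.08 and -0.60.

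**Figure D4:**
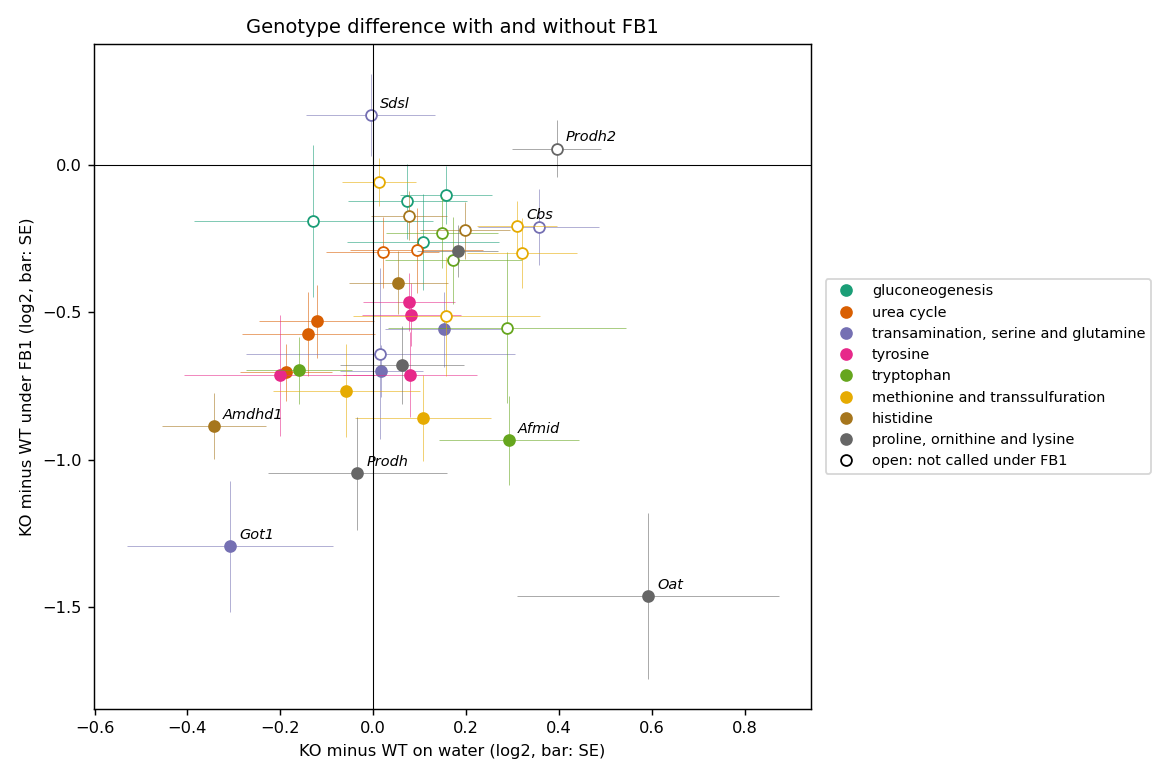
KO minus WT for each gene on water (horizontal axis) and under FB1 (vertical axis), in log2 with SE bars, coloured by pathway; open symbols were not called under FB1. Points lie around 0 on the horizontal axis and mostly below 0 on the vertical axis, and Oat is lowest at -1.46.

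Each gene is given by its brightest tested probe. Of the module's 62 probes, 59 were tested, and 18 genes had more than 1. Of the 20 tested probes beside those used, 19 lay below 0 and 17 were called lower for FB1 in KO livers, and 0 were called in WT livers. Probes disagreed for Amdhd1, Bhmt and Sds as given above, and the difference of FB1 effects in Hgd was lost when its probes were averaged. Calls changed with the probe elsewhere too. With FB1, other probes of Asl (-1.20 ± 0.22) and Kynu (-0.48 ± 0.12) were called lower in KO than in WT livers, unlike those used. That of Amdhd1 (0.095 ± 0.085) was not. In the difference of effects, other probes of Gpt (-0.83 ± 0.19) and Uroc1 (-0.60 ± 0.17) were called, unlike those used. Those of Haao (-0.61 ± 0.22) and Hgd (-0.17 ± 0.32) were not. On water, the other Gpt probe was called higher in KO than in WT livers (0.53 ± 0.14, limma adjusted p = 0.0101 over all probes), unlike that used.

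Related genes outside the module were counted in the same way. The counts for FB1 in KO livers, here and for the cell type lists, stand against 24.6% of all genes lower and 16.5% higher, and those for the difference of effects against 4.84% lower and 4.46% higher. Of 29 other genes of amino acid catabolism, 25 fell in KO livers with FB1 and 0 rose, with a median of -0.56, and 12 fell further than in WT livers. Qdpr, the dihydropteridine reductase that serves phenylalanine hydroxylation, fell by 0.95 ± 0.099, Suox, sulfite oxidase, by 0.93 ± 0.14, and Amt, of the glycine cleavage system, by 0.32 ± 0.076. Dmgdh, dimethylglycine dehydrogenase, named here after its values were seen, was the single gene of the pathway lists called in WT livers, where it fell by 0.43 ± 0.11 (limma adjusted p = 0.0318). Of 15 genes of branched-chain amino acid breakdown, 14 fell in KO livers, among them Ivd, Pccb and Acadsb by 0.76 ± 0.11, 0.85 ± 0.11 and 0.84 ± 0.10, and 6 differed between the genotypes in the FB1 effect.

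Of 18 glycolytic and other gluconeogenic genes, 7 fell and 1 rose in KO livers (median -0.22). The gene that rose was Pck2, the mitochondrial phosphoenolpyruvate carboxykinase, which moved opposite to Pck1. Pck2 ranged from -1.04 through -0.85 to -0.62 in WT control, -0.59 through -0.44 to 0.01 in WT FB1, -1.72 through -1.36 to -1.10 in KO control and -0.53 through -0.27 to -0.05 in KO FB1 livers. It rose by 1.11 ± 0.12 in KO livers (limma adjusted p = 3.78e-07), and KO control was the lowest of the 4 groups. Pfkl, the liver phosphofructokinase, fell by 0.38 ± 0.064.

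The other 9 genes of the urea cycle and ammonia handling were divided, with 4 falling and 2 rising. Glul, the pericentral glutamine synthetase, fell from 5.71, 5.87 and 5.98 in KO control to 2.97, 3.76 and 4.66 in KO FB1 livers, by 2.13 ± 0.28. It was 5.54, 5.73 and 5.91 in WT control and 3.96, 5.31 and 5.80 in WT FB1 livers, and the effects differed by -1.40 ± 0.40 (limma adjusted p = 0.0285). Car5a, the mitochondrial carbonic anhydrase that supplies bicarbonate to Cps1, fell by 0.86 ± 0.13 and was higher in KO than in WT livers on water, by 0.60 ± 0.13. Asns, asparagine synthetase, went the other way. It ranged from 0.32 through 1.28 to 1.45 in WT control, 0.71 through 1.08 to 1.80 in WT FB1, -1.19 through -0.46 to 0.02 in KO control and 0.51 through 1.93 to 2.90 in KO FB1 livers, a rise of 2.33 ± 0.32 from a low KO control level.

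Serine and proline synthesis rose in KO livers for 4 of 7 genes and fell for 0. Psat1, phosphoserine aminotransferase, rose by 1.42 ± 0.22 and its effect differed between genotypes by 1.04 ± 0.31 (limma adjusted p = 0.0364). The other 3, named after their values were seen, were Phgdh at 1.49 ± 0.21, Aldh18a1 at 1.22 ± 0.23 and Psph at 0.54 ± 0.16. The list's mean relative to WT control was -0.58 to -0.24 in KO control and -0.02 to 0.54 in KO FB1 livers, and 0.09 to 0.27 in WT FB1 livers. KO livers on water were thus below WT FB1 livers and the lowest of the 4 groups.

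Of 10 hepatic amino acid transporters, 7 fell and 2 rose in KO livers. The glutamate transporter Slc1a2, another pericentral gene, fell most, from 2.44, 2.57 and 2.95 in KO control to -4.28, -2.63 and -1.18 in KO FB1 livers. That is -5.23 ± 0.46, or 37.6-fold, against a WT difference of -1.35 ± 0.46 (limma adjusted p = 3.9e-08 and 0.117), and the gene was above background on all 24 arrays. Slc38a3, a glutamine transporter, fell by 0.63 ± 0.12. Of 20 regulators of this metabolism, 11 fell and 1 rose, and the 2 that differed between genotypes in the FB1 effect were Cebpa, a transcription factor of hepatocyte metabolism, at -0.69 ± 0.16, and Crtc2, a coactivator of CREB, at -0.42 ± 0.12. Zonal markers showed 4 of 9 pericentral genes lower in KO livers, with Rgn at -0.92 ± 0.10, Cyp2e1 at -0.64 ± 0.12 and Cyp27a1 at -1.05 ± 0.16, and 4 of 9 also called in the difference of effects. Of 8 periportal genes 2 were lower, Igfals among them at -0.68 ± 0.20, and 1 was higher, Cdh1 at 1.27 ± 0.27, named after its values were seen. The periportal median was 0.02, and the share of genes lower was near that of all genes.

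**Figure D5:**
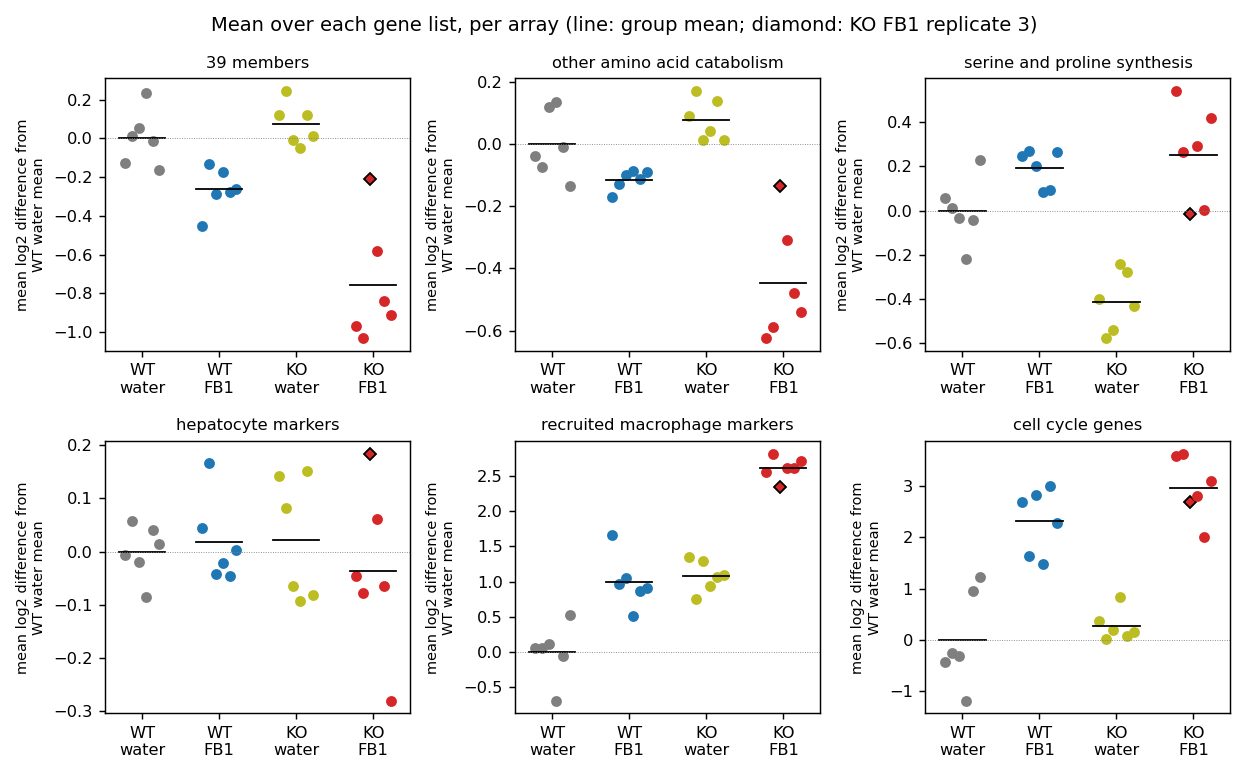
Mean log2 difference from the WT control mean over each of 6 gene lists, per array (vertical axis) and group; lines are group means and the diamond is KO FB1 replicate 3. The module and other amino acid catabolism are lowest in KO FB1 livers, hepatocyte markers stay between -0.28 and 0.18, and recruited macrophage and cell cycle lists are highest there.

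Markers of cell types and of proliferation moved in the same animals. Over all genes tested, 24.6% fell and 16.5% rose with FB1 in KO livers, and 0.824% fell and 2.06% rose in WT livers. Of the 14 hepatocyte markers, 2 were lower and 1 was higher with FB1 in KO livers, with a median of -0.06, and Apoh and F2 were lower by 0.33 ± 0.066 and 0.20 ± 0.065. Of 10 recruited monocyte and macrophage markers, 7 rose in KO and 4 in WT livers. Their mean relative to WT control was -0.69 to 0.53 in WT control, 0.52 to 1.66 in WT FB1, 0.76 to 1.35 in KO control and 2.34 to 2.82 in KO FB1 livers, and Trem2 and Ms4a7 rose by 2.87 ± 0.29 and 2.12 ± 0.24 in KO livers. These 10 markers were divided between genotypes. On water 5 were higher and 3 lower in KO than in WT livers, from -2.32 to 6.76, where 7.21% and 8.02% of all genes were. With FB1 6 were higher and 2 lower, from -1.82 to 6.74, where 14.5% and 18.3% were. Of 10 stellate and fibroblast markers, 7 rose in KO and 4 in WT livers, with Col1a2 and Lum at 1.68 ± 0.17 and 1.59 ± 0.15. Their mean was -0.16 to 0.10, 0.35 to 1.0, 0.01 to 0.48 and 0.97 to 1.54 in the 4 groups in that order. All 12 cell cycle genes rose in both genotypes, with Kif20a at 3.0 ± 0.35 and Plk1 at 2.58 ± 0.31 in KO livers, and 0 of 12 differed between genotypes in the FB1 effect. The cell cycle mean was -1.19 to 1.23, 1.48 to 3.01, 0.03 to 0.84 and 2.0 to 3.64.

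Sinusoidal endothelial markers fell for 7 of 10 in KO livers, among them Stab2 by 0.94 ± 0.13 and Dnase1l3 by 1.1 ± 0.17. The mean of the list was -0.14 to 0.25 in WT control, -0.81 to 0.22 in WT FB1, -0.38 to 0.08 in KO control and -1.08 to -0.47 in KO FB1 livers. Jchain, which encodes the joining chain of secreted antibodies and marks plasma cells, rose by 1.26 ± 0.22 in KO livers. Of 10 resident macrophage markers, 2 rose and 2 fell with FB1 in KO livers, C1qa by 0.75 ± 0.17 and Cd163 by -2.15 ± 0.30. On water 8 of these markers were already lower in KO than in WT livers, which held for 8.02% of all genes. Of the remaining lists, 1 of 8 cholangiocyte genes (Sox9, 1.89 ± 0.27) rose, 1 of 8 neutrophil genes (Ly6g, -0.54 ± 0.16, the lowest of a list with a median of 0.81 and a highest value of 1.25) and 1 of 4 erythroid genes (Klf1, -1.60 ± 0.20) fell, and 0 of 6 T and NK cell genes were called. Of 4 pancreas and adipose genes tested, Cidec rose by 1.88 ± 0.31, a gene that fatty hepatocytes also express, and Amy2a5 fell by 0.64 ± 0.13. Epb42 and Pnlip were above background on no array.

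In KO FB1 replicate 3, the liver in which the module was least lowered, the recruited macrophage mean was 2.34 against 2.56 to 2.82 in the other 5 and 0.76 to 1.35 in KO controls. Its stellate mean was 0.97 against 1.1 to 1.54, its cell cycle mean 2.70 against 2.0 to 3.64, and its hepatocyte mean 0.18 against -0.28 to 0.06. This liver was thus the lowest of its group for the recruited macrophage and stellate lists and the highest for the hepatocyte list, and it lay above all KO controls for the recruited macrophage, stellate and cell cycle lists. The part of these cell type and proliferation changes in the fall of the module was not tested, and with signal scaled to the hepatocyte markers the median fall in KO livers was -0.70.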

How the data were processed

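Liver RNA, extracted with TriZol and labelled with Cy3, was hybridised to 24 single-colour Agilent arrays, per the labels' protocols. Scanner files held the processed signal, a background-subtracted intensity, deposited by the authors per array from Agilent Feature Extraction 10.10.1.1, per the file headers. Control spots and spots marked as outliers (64 to 121 per array) were left out, and no spot was saturated. The 75th percentile of signal was 490 to 685 per array; the number of arrays limits the precision. Each array's log2 signal was set relative to that percentile and spots of 1 probe were averaged. The test covered probes with at least 4 values in each group that exceeded background throughout 1 group or more, marked spots aside. A gene was represented by its brightest tested probe, giving 22088 genes.

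Groups came from the labels; the design text gives 6 mice per group, and nothing pairs mice across groups. One limma 3.58.1 model (R 4.3.3, with the data.table package, version 1.17.8) was fitted over all 4 groups with 20 residual degrees of freedom, and p-values were adjusted by Benjamini-Hochberg over all genes. An error after ± is the standard error of a log2 difference between means of 6 arrays. The fit was checked on simulated data. The authors' deposited value table holds log2 values, with scale and centring not stated; its column medians were 7.858 to 7.863, each of its 24 columns correlated best with its own array (median r 0.905), and it was used as an alternative. Other alternatives were quantile normalisation, normexp background correction (offset 50), hepatocyte-marker scaling, the filter on dim probes, probe averaging, a slide or replicate block, an intensity trend, each comparison's groups alone, a 1.5-fold minimum and leaving out each array. Figures were drawn with matplotlib 3.10.9 (Python 3.11.15).

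The 39 members and the 21 other gene lists were chosen with earlier results of these data known. All members may be named. Group values are given for the gene of each pathway with the largest change in each FB1 comparison and for every member called in the difference of FB1 effects. From each other list of pathways or zones the 3 called genes with the smallest p in the difference of effects, or otherwise in KO livers, are named, and from cell type lists the 2 with the smallest p in KO livers and those above background nowhere. For the B and plasma cell list, 1 gene and the list's count are not reported here. Probe coordinates are those of the file headers (mm9), and promoters are RefSeq's (GRCm38.p6).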

Additional observations from a re-analysis of the deposited data

Results flagged for a closer look

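The FB1 effect differed between genotypes, by limma's test of the difference, for 17 genes. The difference was -2.05 for Oat, -1.23 for Afmid, -1.01 for Prodh, -0.97 for Ahcy, -0.79 for Hpd, -0.74 for Aass, -0.72 for Agxt, -0.71 for Gls2, -0.71 for Mat1a and -0.62 for Gnmt. It was -0.59 for Hgd, -0.54 for Fah, -0.54 for Haao, -0.54 for Amdhd1, -0.52 for Otc, -0.52 for Cbs and -0.47 for Aldh4a1. Negative values mean a larger fall in KO livers.

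A single animal lay far from the other 5 of its group by Dixon's criterion in 4 of 156 combinations of gene and group, where chance gives about 1 in 20. These were WT FB1 replicate 4 for Otc (5.98), WT control replicate 4 for Tat (7.70), KO FB1 replicate 3 for Prodh2 (5.76) and KO control replicate 2 for Oat (8.09), each the highest of its group.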

How the results depend on the processing

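The 37 falls in KO livers numbered 34 to 38 when 1 array was left out, and the other counts ranged from 0 to 2 for FB1 in WT, 20 to 31 for KO against WT with FB1, 2 to 6 without FB1 and 14 to 30 for the difference of FB1 effects. The module's median then ranged from -0.85 to -0.69, -0.29 to -0.18, -0.61 to -0.38, 0.04 to 0.13 and -0.61 to -0.49 in that order. KO FB1 replicate 3 gave the highest counts, and without it Gnmt and Tat were called in WT livers. For FB1 in WT, 1 gene (Gnmt) was called with hepatocyte-marker scaling, with normexp, with the slide as a block and with an intensity trend, and 2 (Mat1a and Tat) with the comparison's groups alone. KO against WT without FB1 gave 7 genes with quantile normalisation, with 7 higher and 0 lower. It gave 7 with the authors' values, with 6 higher and 1 lower, and 0 at 1.5-fold or more. KO against WT with FB1 gave 13 at 1.5-fold or more. The difference of effects gave 11 with hepatocyte-marker scaling and 11 at 1.5-fold or more. FB1 in KO gave 33 of 39 genes lower with quantile normalisation, where 22.1% of all genes were. With the authors' values it gave 29 of 37, where 19% were. The median for FB1 in KO was -0.57 with quantile normalisation, -0.53 with the authors' values and -0.43 on slide 2. It was -0.46 on slide 2 and -0.0064 on slide 3 for FB1 in WT, -0.079 on slide 2 for KO against WT with FB1, and -0.028 on slide 2 and -0.92 on slide 3 for the difference. Among the called genes the sign turned for Aldh4a1 (KO against WT with FB1, 0.023 on slide 2), Haao (difference, 0.092 on slide 2) and Amdhd1 (KO against WT without FB1, 0.075 with probes averaged). The cause was not tested. Of all 39 genes, 22 lay below 0 on slide 2 for the difference, against 38 over all arrays. Without 1 array, calls in the difference were lost for Mat1a (17 of 24 fits), Haao (13) and Amdhd1 (10), for Amdhd1 in KO against WT without FB1 (8), and for Sds (6), G6pc (3) and Pcx (1) in KO livers.

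Over all genes, FB1 in WT gave 638 calls, against 381 with the groups alone, 424 with hepatocyte-marker scaling, 433 with the authors' values, 433 with no filter and 417 at 1.5-fold or more. The difference gave 2055, against 1196 with hepatocyte-marker scaling, 1258 with no filter and 1304 at 1.5-fold or more. At 1.5-fold or more the count went from 9097 to 3737 for FB1 in KO, from 3363 to 1831 for KO against WT without FB1 and from 7246 to 3255 with FB1. The share of calls that were higher was 40.2% for FB1 in KO (50.8% with hepatocyte-marker scaling) and 47.9% for the difference (60.5% with that scaling, 58.7% with the authors' values).

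No pairing of mice by replicate number was seen: same-number correlations were -0.2 to 0.241, and 2 of 24 arrays correlated best with their own number. Such correlations cannot exclude a weak pairing. With the replicate block the counts were 36 for FB1 in KO, 0 for FB1 in WT, 21 and 4 for KO against WT with and without FB1, and 17 for the difference.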
